A study of Mus musculus with 20 samples.

Results

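The miR-130 and miR-301 family was followed here through its 8 mature arms, the 3p and 5p products of miR-130a, miR-130b, miR-301a and miR-301b, chosen by name from the 1886 mature miRNAs that each library listed. Small RNA was sequenced from midbrain neuron cultures prepared from C57Bl6/J mouse embryos of day E12.5 and grown without serum in Neurobasal-A with B27. All 4 groups shared this source and medium and held 5 libraries each, 20 in all: day 5 in vitro (DIV5) with GDNF at 10 ng/ml, DIV5 without GDNF (control), day 1 in vitro (DIV1) with the same GDNF dose, and DIV1 without GDNF (control). GDNF, short for glial cell line-derived neurotrophic factor, is a secreted protein studied for its support of dopaminergic midbrain neurons, and the design asks how it and time in culture change the miRNAs. The cultures come from dissected ventral mesencephalon, so cells other than neurons can be present, and the labels do not say whether replicates were separate cultures or litters, so p-values measure only the spread between these libraries.

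A miRNA pairs with target messages mainly through its seed, bases 2 to 8 from its 5′ end, and miRNAs that share a seed form a family with largely shared predicted targets. The 3p arms of miR-130 and miR-301 share such a seed and are best known from blood vessels, fat tissue and tumours, where targets in growth factor and BMP signalling have been described. A hairpin is cut into a 5p and a 3p arm, of which usually 1 is loaded into Argonaute and kept while the other is degraded.

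RefSeq mature sequences on build GRCm38.p6 were matched by name for 7 of the 8 arms, and the hairpin of Mir301b was matched for miR-301b-3p. They are shown because the shared seed defines the family and because the bases after it separate its members. Capitals mark bases 2 to 8 in the mature arms and the same 7 letters of the 3p seed in the hairpin.
miR-130a-3p: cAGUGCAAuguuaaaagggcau
miR-130b-3p: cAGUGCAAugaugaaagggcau
miR-301a-3p: cAGUGCAAuaguauugucaaagc
Mir301b hairpin: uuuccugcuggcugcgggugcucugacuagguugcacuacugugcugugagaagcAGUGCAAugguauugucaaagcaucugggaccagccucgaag
miR-130a-5p: gCUCUUUUcacauugugcuacu
miR-130b-5p: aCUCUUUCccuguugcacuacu
miR-301a-5p: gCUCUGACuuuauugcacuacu
miR-301b-5p: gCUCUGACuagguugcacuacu

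The 3 mature 3p arms carried AGUGCAA at bases 2 to 8, and the Mir301b hairpin held these letters once. Counted from 1 at the 5′ end, miR-130a-3p and miR-130b-3p were identical at 20 of 22 bases and differed by U11A and A13G (the base of miR-130a-3p first), whereas miR-130a-3p and miR-301a-3p were identical at 12 of the 22 positions compared and shared the first 9. The sources used here do not state how reads with mismatches or with several matches were treated in counting, so exchange of reads between miR-130a-3p and miR-130b-3p was not tested. The 5p arms had other seeds: CUCUGAC in miR-301a-5p and miR-301b-5p, CUCUUUC in miR-130b-5p and CUCUUUU in miR-130a-5p. The 4 hairpins lie at 3 loci (GENCODE M21 on GRCm38, the assembly also called mm10). Mir130a is at chr2:84741115-84741178 on the minus strand, outside other annotated genes. Mir130b at chr16:17124061-17124142 and Mir301b at chr16:17124400-17124496 are 257 bases apart on the minus strand, both in introns of 2610318N02Rik on the same strand. Mir301, the hairpin of miR-301a, is at chr11:87113004-87113089 on the plus strand, in an intron of Ska2 on the same strand.

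Libraries held between 1781030 and 3983722 counts at DIV5 with GDNF, between 1061619 and 4324505 in DIV5 controls, between 420118 and 1761023 at DIV1 with GDNF and between 686793 and 1557885 in DIV1 controls, so depth moved with the day. Levels are given as CPM, the usual scaling of counts to a common library total, after scaling by the trimmed mean of M-values (TMM), so they are relative to the other miRNAs of a library. On this scale a single read was worth 0.198 to 2.6 CPM, and limits taken from read numbers cover counting error only, since PCR copies of a molecule cannot be told from separate molecules. Within DIV5, replicates 1 and 2 had 1061619 to 1907937 counts and replicates 3 to 5 had 2969524 to 4324505. DIV5 control libraries 1 and 5 were treated as a pair set apart. Of the 542 tested miRNAs, 43 were at least 2-fold higher in both than the mean of DIV5 control libraries 2 to 4. Among the 43 were 0 family arms. The count was made for this pair and this direction only, so it does not show how unusual the pair is. Of the 9 listed neuronal miRNAs, 7 could be tested, among them miR-124-3p, the defining miRNA of neurons, with means of 6040, 6060, 2440 and 2360 CPM at DIV5 with GDNF, in DIV5 controls, at DIV1 with GDNF and in DIV1 controls. miR-138-5p was listed at 0 in all libraries and miR-129-5p had 142 reads in all.

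All 8 arms were detected in every library and passed the filter on low counts, which kept 542 miRNAs. Together they held 2.00% ± 0.266 of the counts at DIV5 with GDNF, 2.09% ± 0.0802 in DIV5 controls, 2.84% ± 0.177 at DIV1 with GDNF and 2.74% ± 0.132 in DIV1 controls (SD, n = 5 each). In the full names of the files, mmu-miR-301a-3p was the most abundant arm, with a mean of 13940 CPM over the 20 libraries, which placed it 19th among the tested miRNAs. It was followed by mmu-miR-130a-3p with 5852 CPM, mmu-miR-130b-3p with 2474 CPM and mmu-miR-301b-3p with 1398 CPM. This order of the 3p arms held in 20 of 20 libraries, and miR-301a-3p alone gave 56.8% ± 3.18 of the family's reads (SD, n = 20).

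The 5p arms were the minor products of their hairpins, but to unequal degrees. mmu-miR-130b-5p averaged 798.7 CPM over the 20 libraries and made up 23.4% ± 3.68 of the reads of its hairpin (SD, n = 20). The 5p shares of the other hairpins were 0.205% ± 0.0456 for miR-301a, 0.352% ± 0.184 for miR-130a and 0.5% ± 0.214 for miR-301b. miR-301a-5p averaged 28.72 CPM, miR-130a-5p 21.76 CPM and miR-301b-5p 7.323 CPM over the 20 libraries. miR-301a-5p exceeded miR-130a-5p in 15 of 20 libraries, so these neighbours in the order are not separated beyond their spread, and miR-130a-5p exceeded miR-301b-5p in 18 of 20.

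**Figure D1:**
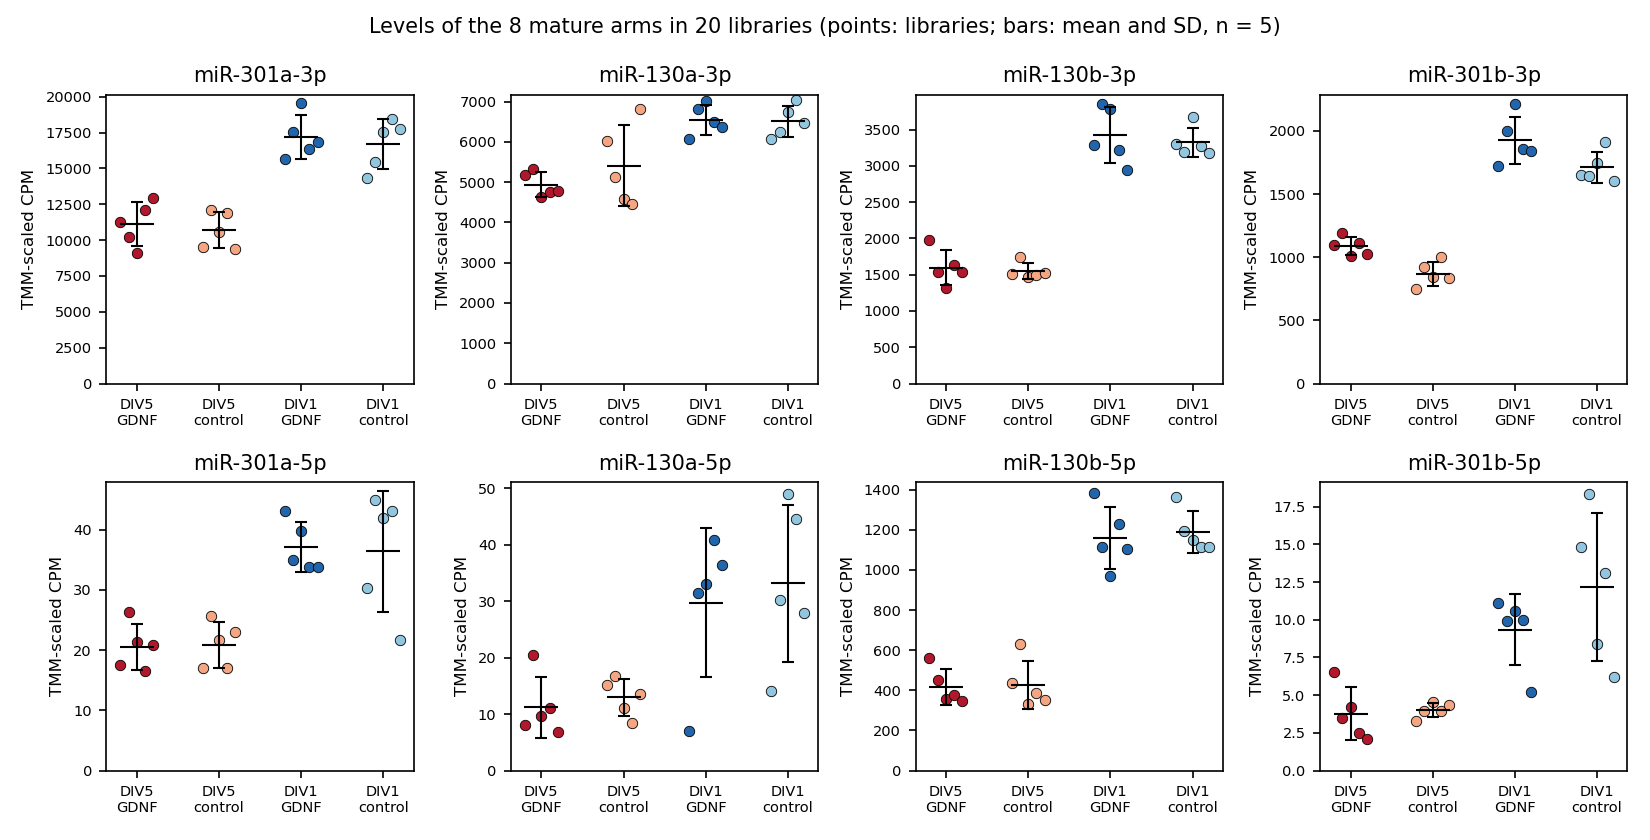
Level of each of the 8 arms (TMM-scaled CPM, linear axes from 0) in every library, by group, with the 3p arms above and the 5p arms below; points are libraries in the order of their replicate number, and bars give the mean and SD of 5 libraries. At DIV5 the values of miR-301a-3p, miR-130b-3p, miR-301b-3p and miR-130b-5p lie below those at DIV1, while miR-130a-3p overlaps in the controls.

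Time in culture was the comparison in which the family moved. All 8 arms were lower at DIV5 than at DIV1, in cultures with GDNF and in control cultures, and the decreases in controls reached 3.06-fold, in miR-301b-5p. Among the 3p arms in controls, miR-130b-3p was 2.15-fold lower, miR-301b-3p 1.97-fold, miR-301a-3p 1.56-fold and miR-130a-3p 1.2-fold. In edgeR's quasi-likelihood test with Benjamini-Hochberg adjustment over 542 miRNAs, 8 of 8 arms were called lower at an adjusted p below 0.05 in both day comparisons. Of all tested miRNAs, 27.3% were called lower with GDNF and 29.3% in controls. The median log2 fold change of the 8 arms was -0.98 with GDNF and -1.04 in controls, against 0.00 and 0.10 over all 542. The DIV5 and DIV1 values did not overlap for 6 of 8 arms with GDNF and for 5 of 8 in controls, where 18.3% and 19.2% of all tested miRNAs were lower without overlap.

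miR-130b-3p had 1981, 1533, 1320, 1634 and 1531 CPM at DIV5 with GDNF, 1509, 1749, 1474, 1493 and 1526 CPM in DIV5 controls, 3293, 3852, 3789, 3222 and 2951 CPM at DIV1 with GDNF, and 3297, 3186, 3678, 3282 and 3180 CPM in DIV1 controls (replicates 1 to 5 in each group). Every DIV5 library was below every DIV1 library. With GDNF the means were 1600 ± 242 CPM at DIV5 and 3421 ± 387 CPM at DIV1 (SD, n = 5 each), a log2 fold change of -1.10 (SE 0.108, edgeR adjusted p = 6.62e-08). In controls they were 1550 ± 113 CPM at DIV5 and 3324 ± 205 CPM at DIV1, also -1.10 (SE 0.108, edgeR adjusted p = 5.3e-08).

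Its partner arm, the most abundant 5p arm of the family, was also lower at DIV5. miR-130b-5p had 561.2, 449.1, 358.4, 378 and 344.2 CPM at DIV5 with GDNF, 436.9, 628.9, 330.5, 387.9 and 353.7 CPM in DIV5 controls, 1385, 1114, 971.7, 1229 and 1105 CPM at DIV1 with GDNF, and 1365, 1193, 1152, 1115 and 1115 CPM in DIV1 controls. Again no DIV5 library reached the lowest DIV1 library. The log2 fold change was -1.47 (SE 0.168, edgeR adjusted p = 3.85e-07) with GDNF and -1.48 (SE 0.168, adjusted p = 3.59e-07) in controls. The 5p share of the miR-130b reads was 20.7% ± 1.96 and 21.3% ± 3.29 at DIV5 with GDNF and in DIV5 controls, and 25.4% ± 3.86 and 26.3% ± 2.06 at DIV1 with GDNF and in DIV1 controls (SD, n = 5 each).

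miR-301b-3p, encoded beside miR-130b, had 1100, 1194, 1009, 1111 and 1028 CPM at DIV5 with GDNF, 746.1, 925.1, 839.4, 998 and 837.8 CPM in DIV5 controls, 1721, 2000, 2211, 1857 and 1838 CPM at DIV1 with GDNF, and 1653, 1640, 1744, 1909 and 1606 CPM in DIV1 controls. The 2 days were fully separated with and without GDNF. The log2 fold change was -0.82 (SE 0.1, edgeR adjusted p = 8.43e-07) with GDNF and -0.98 (SE 0.101, adjusted p = 1.07e-07) in controls. Its scarce partner miR-301b-5p had 2 to 23 reads per library and averaged 3.763 ± 1.75 CPM at DIV5 with GDNF, 4.02 ± 0.483 CPM in DIV5 controls, 9.347 ± 2.37 CPM at DIV1 with GDNF and 12.16 ± 4.89 CPM in DIV1 controls (SD, n = 5 each). It was called in both day comparisons, at -1.42 with GDNF (SE 0.324, edgeR adjusted p = 0.00106) and -1.62 in controls (SE 0.309, adjusted p = 0.000151).

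miR-301a-3p, from the intron of Ska2, had 11260, 10240, 9106, 12120 and 12960 CPM at DIV5 with GDNF, 9522, 12100, 10600, 11920 and 9377 CPM in DIV5 controls, 15640, 17560, 19600, 16330 and 16860 CPM at DIV1 with GDNF, and 14320, 15480, 17570, 18470 and 17720 CPM in DIV1 controls. No DIV5 value reached a DIV1 value, but the distance was smaller than for miR-130b. The log2 fold change was -0.63 (SE 0.111, edgeR adjusted p = 8.53e-05) with GDNF and -0.64 (SE 0.111, adjusted p = 5.38e-05) in controls. Its 5p arm, with 13 to 110 reads per library, averaged 20.49 ± 3.84 CPM at DIV5 with GDNF, 20.85 ± 3.83 CPM in DIV5 controls, 37.12 ± 4.15 CPM at DIV1 with GDNF and 36.4 ± 10 CPM in DIV1 controls (SD, n = 5 each). The edgeR log2 fold changes of miR-301a-5p were -0.87 (adjusted p = 0.00137) with GDNF and -0.81 (adjusted p = 0.0019) in controls.

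miR-130a-3p had 5183, 5338, 4626, 4760 and 4787 CPM at DIV5 with GDNF, 6032, 5134, 4593, 4465 and 6829 CPM in DIV5 controls, 6070, 6815, 7016, 6493 and 6359 CPM at DIV1 with GDNF, and 6076, 6243, 6735, 7034 and 6462 CPM in DIV1 controls. With GDNF the days did not overlap. In controls they did: DIV5 control libraries 1 and 5, the pair set apart above, averaged 1.36-fold the mean of DIV5 control libraries 2 to 4, and library 5 lay among the DIV1 values. The same 2 libraries had summed endothelial miRNAs of 40.39 to 63.62 CPM, against 18.47 to 26.66 CPM in DIV5 control libraries 2 to 4. Oligodendrocyte miRNAs summed to 348.8 to 411.3 CPM against 205 to 240.9 CPM. These sums were almost only miR-126a-3p and miR-219a-2-3p. The sum for astrocytes and injury was lower in libraries 1 and 5, at 2486 to 2499 CPM against 2742 to 3049 CPM. This sum was almost only miR-21a-5p, with a mean of 2640 CPM in DIV5 controls. It does not describe miR-146a-5p, which averaged 73.4 CPM and ran from 26.9 to 136 CPM in DIV5 controls. The sums overlapped for blood cells (10.7 to 26.86 against 15.23 to 62.2 CPM) and for smooth muscle and mesenchymal cells (446.5 to 1339 against 548 to 1122 CPM). They also overlapped for dividing cells (13990 to 14600 against 13940 to 19940 CPM). Summed neuronal miRNAs in libraries 1 and 5 were 78060 to 83110 CPM, against 88410 to 107700 CPM in libraries 2 to 4. Most of this sum was miR-9-5p, which averaged 67000 CPM in DIV5 controls. miR-124-3p ran from 5830 to 6220 CPM over all DIV5 control libraries. Other listed neuronal miRNAs ran more widely there: miR-128-3p from 6190 to 13600 CPM and miR-132-3p from 517 to 1990 CPM. miR-137-3p ran from 122 to 1720 CPM, miR-218-5p from 1220 to 3740 CPM and miR-153-3p from 2950 to 4070 CPM. The sum therefore does not show how each neuronal miRNA lay in libraries 1 and 5. The part of these cell types in the result was not tested. The log2 fold change of miR-130a-3p was -0.41 with GDNF (SE 0.105, edgeR adjusted p = 0.00281) and -0.27 in controls (SE 0.105, adjusted p = 0.0332). Without DIV5 control libraries 1 and 5 the control value was -0.44 (edgeR adjusted p = 0.000183). These libraries held its highest DIV5 control values, 6032 and 6829 CPM. Leaving them out therefore makes the fall larger and is no separate test of it.

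The call of miR-130a-3p in controls was lost in 12 of 20 alternatives. It was lost when libraries were scaled by their totals alone (-0.01, edgeR adjusted p = 0.936), where the median of all miRNAs was 0.36, without a filter on low counts (-0.05, adjusted p = 0.858), with only the groups compared in the fit (-0.25, adjusted p = 0.114) and with DIV5 replicates 1 and 2 alone (-0.15, adjusted p = 0.3). It was also lost in 8 of the 10 fits that left out 1 library of this comparison (adjusted p between 0.0586 and 0.122). These were the fits without any 1 of DIV1 control libraries 1 to 5 or DIV5 control libraries 2 to 4. Relative to the median of all tested miRNAs it was -0.37 under TMM, size factors of the DESeq2 type and totals alike. With GDNF the totals gave -0.26 (adjusted p = 0.0542). Its 5p arm, with 5 to 62 reads per library, averaged 11.18 ± 5.42 CPM at DIV5 with GDNF, 12.99 ± 3.28 CPM in DIV5 controls, 29.72 ± 13.2 CPM at DIV1 with GDNF and 33.14 ± 13.9 CPM in DIV1 controls (SD, n = 5 each). miR-130a-5p was called at -1.45 with GDNF (SE 0.383, edgeR adjusted p = 0.00345) and -1.35 in controls (SE 0.38, adjusted p = 0.00436), and its days overlapped in both.

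**Figure D2:**
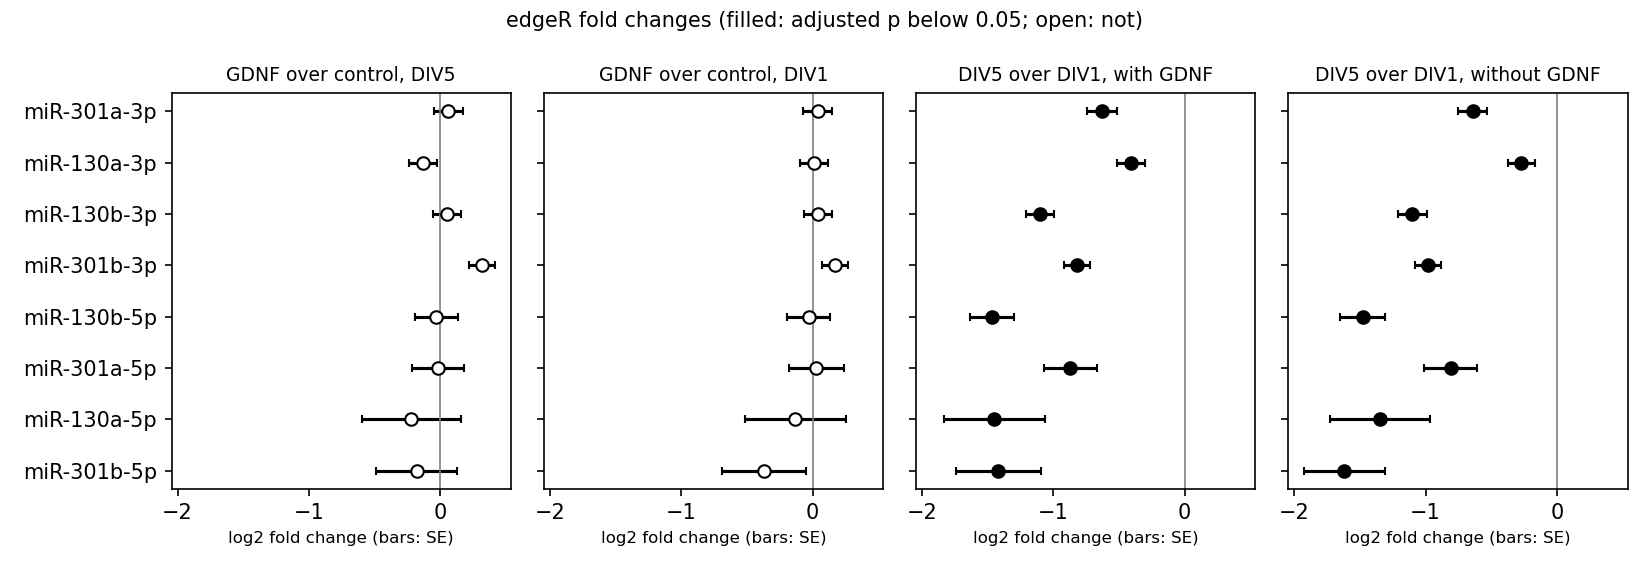
Log2 fold change of each arm in the edgeR fit for GDNF over control at DIV5 and at DIV1 and for DIV5 over DIV1 with and without GDNF; bars give the SE, and filled points have an adjusted p below 0.05. All 8 arms are filled and below 0 in both day comparisons, and none is filled for GDNF.

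Because depth differed between the days, the day comparison was also made with the shallower and the deeper DIV5 libraries apart, each against all DIV1 libraries. With DIV5 replicates 1 and 2, whose totals come closest to those at DIV1, miR-130b-3p had -0.97 with GDNF and -0.97 in controls, miR-130b-5p -1.21 and -1.12, miR-301b-3p -0.75 and -0.98, and miR-301a-3p -0.68 and -0.58, each called, with edgeR adjusted p between 1.75e-05 and 0.000948. With these libraries 5 of 8 arms were called lower in each day comparison, where 20.6% of all tested miRNAs with GDNF and 20% in controls were called lower. With DIV5 replicates 3 to 5 the calls numbered 8 of 8 in each, against 29.0% and 31.5% of all tested miRNAs.

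Marker miRNAs of several cell types moved with the day as well. All 7 miRNAs of a list for dividing cells, products of the miR-17 and miR-25 clusters that accompany proliferation, were called lower at DIV5 in both comparisons. Of all tested miRNAs, 27.3% were called lower with GDNF and 29.3% in controls. The list's median log2 fold changes were -1.22 and -1.18, from -2.41 and -2.73 in miR-92a-3p to -0.51 and -0.39 in miR-106b-5p. Its summed level was 14610 to 22790 CPM at DIV5 with GDNF, 13940 to 19940 CPM in DIV5 controls, 60360 to 75520 CPM at DIV1 with GDNF and 59500 to 82590 CPM in DIV1 controls. Most of the sum at DIV1 was miR-92a-3p, with means of 50400 CPM with GDNF and 54700 CPM in controls. Of 7 tested neuronal miRNAs, 5 were called higher at DIV5 with GDNF and 6 in controls, where 25.1% and 31.4% of all tested miRNAs were called higher, with median log2 fold changes of 1.31 and 1.36. The summed level of the neuronal list overlapped between the days, at 68940 to 112200 CPM at DIV5 with GDNF, 78060 to 107700 CPM in DIV5 controls, 68160 to 93160 CPM at DIV1 with GDNF and 58120 to 96100 CPM in DIV1 controls. In it miR-9-5p, the most abundant miRNA of the list, was not called in either day comparison and averaged 74300, 67000, 74200 and 72500 CPM in these 4 groups. The 4 miRNAs listed for smooth muscle and mesenchymal cells summed to 198.8 to 1980 CPM at DIV5 with GDNF, 446.5 to 1339 CPM in DIV5 controls, 2711 to 3381 CPM at DIV1 with GDNF and 2743 to 4029 CPM in DIV1 controls, and 2 of 4 were lower in each day comparison.

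In the other marker lists, the tested miRNAs of endothelial cells, blood cells and the oligodendrocyte lineage were called lower at DIV5. The summed level of the list for astrocytes and injury overlapped between the days. Summed miRNAs of endothelial cells reached at most 33.6 and 63.62 CPM at DIV5 and 83.34 and 147.6 CPM at DIV1, with GDNF and in controls, and the 1 tested of 2 was lower at DIV5 in both comparisons, with miR-126a-5p listed at 0. Those of blood cells reached at most 57.82 and 62.2 CPM at DIV5 and 165.7 and 161.7 CPM at DIV1, and the 2 tested of 5 were lower in both. For the oligodendrocyte lineage the 1 tested of 3 was lower in both, with sums of 167.6 to 294.9 CPM at DIV5 with GDNF, 205 to 411.3 CPM in DIV5 controls, 439.4 to 601.4 CPM at DIV1 with GDNF and 484.8 to 656.9 CPM in DIV1 controls. Of 2 miRNAs for astrocytes and injury, 0 were called higher at DIV5 with GDNF and 1 in controls, and they summed to 2486 to 3463 CPM over the 20 libraries. The part of these cell types in the family's fall was not tested, and in bulk RNA fewer cells of a type and less RNA per cell cannot be told apart.

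**Figure D3:**
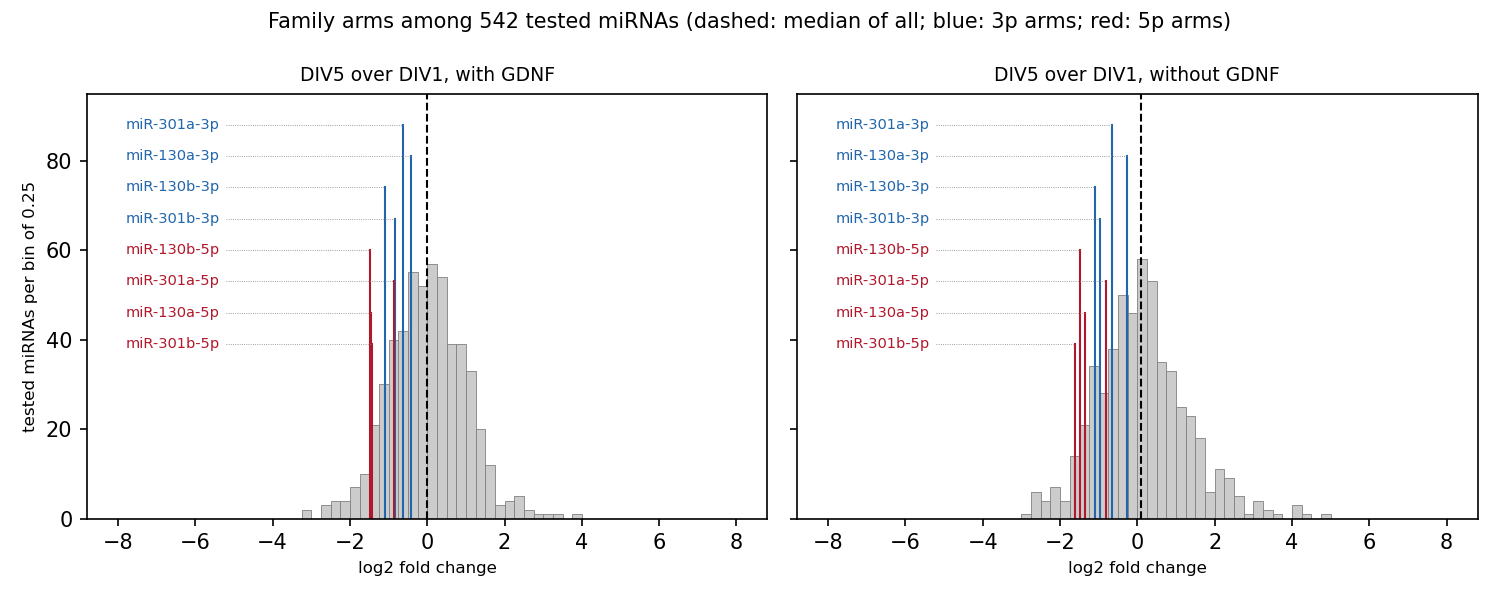
Number of the 542 tested miRNAs per bin of log2 fold change for DIV5 over DIV1, with GDNF and without it; vertical lines give the 8 family arms (blue for 3p, red for 5p) and the dashed line the median of all. The family lines lie left of the dashed line in both panels, between -0.27 and -1.62, with miR-130a-3p nearest to it.

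Ratios between members within a library do not depend on the scaling of libraries, so they show directly whether arms fell by unequal amounts. The 7 pairs tested in 4 comparisons gave 28 exact permutation tests (two-sided, 5 libraries against 5, for which 0.00794 is the smallest p), and 7 of 28 passed after Benjamini-Hochberg adjustment. Of these, 6 were day comparisons in which a ratio was higher at DIV5, and 5 of the 7 involved miR-130a-3p. These 5 were ratios of miR-130a-3p to miR-130b-3p or to miR-301b-3p. The ratio of miR-301a-3p to miR-130a-3p did not pass in any comparison. It was 2.24 at DIV5 and 2.62 at DIV1 with GDNF (exact permutation adjusted p = 0.148). In controls it was 1.99 at DIV5 and 2.56 at DIV1 (exact permutation adjusted p = 0.131).

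There were 4.71, 4.47, 4.59, 4.28 and 4.65 reads of miR-130a-3p per read of miR-301b-3p at DIV5 with GDNF, 8.09, 5.55, 5.47, 4.47 and 8.15 in DIV5 controls, 3.53, 3.41, 3.17, 3.5 and 3.46 at DIV1 with GDNF, and 3.68, 3.81, 3.86, 3.68 and 4.02 in DIV1 controls. DIV5 was above DIV1 without overlap in both conditions, and DIV5 control libraries 1 and 5 were the highest. As geometric means the ratio was 4.54 at DIV5 and 3.41 at DIV1 with GDNF, and 6.17 at DIV5 and 3.81 at DIV1 in controls (exact permutation p = 0.00794, adjusted p = 0.0317 for each). The ratio of miR-130a-3p to miR-130b-3p was 3.11 at DIV5 and 1.92 at DIV1 with GDNF, and 3.45 at DIV5 and 1.96 at DIV1 in controls (exact permutation adjusted p = 0.0317 for each). Among the reads of all 8 arms, miR-130a-3p took 25.8% ± 2.42 at DIV5 with GDNF, 28.5% ± 5.62 in DIV5 controls, 21.6% ± 0.515 at DIV1 with GDNF and 22.0% ± 0.522 in DIV1 controls (SD, n = 5 each).

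The ratio of miR-301a-3p to miR-130b-3p was 6.97 at DIV5 and 5.04 at DIV1 with GDNF (exact permutation adjusted p = 0.0556), and 6.88 at DIV5 and 5.01 at DIV1 in controls (adjusted p = 0.0317). That of miR-301a-3p to miR-301b-3p was 10.2 at DIV5 and 8.94 at DIV1 with GDNF (exact permutation adjusted p = 0.199), and 12.3 at DIV5 and 9.74 at DIV1 in controls (adjusted p = 0.0317). The ratio of miR-130b-3p to miR-301b-3p, the pair within 1 host gene, did not pass in either day comparison: it was 1.46 at DIV5 and 1.77 at DIV1 with GDNF (exact permutation adjusted p = 0.0741) and 1.79 at DIV5 and 1.94 at DIV1 in controls (adjusted p = 0.3). The ratio of miR-130b-3p to miR-130b-5p was 3.86 at DIV5 and 2.95 at DIV1 with GDNF (adjusted p = 0.119) and 3.72 at DIV5 and 2.80 at DIV1 in controls (adjusted p = 0.0741, exact permutation tests).

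Without DIV5 control libraries 1 and 5 the ratios of miR-130a-3p in controls became 5.14 over miR-301b-3p and 3.01 over miR-130b-3p at DIV5, still with no overlap with DIV1. The 7 calls were all lost in this setting (exact permutation adjusted p = 0.0625 for each): 4 of them are day comparisons in controls, where 3 libraries against 5 cannot go below an exact p of 0.0179. The other 3, of cultures with GDNF or of DIV1, use neither library and kept their ratios and their exact permutation p of 0.00794, so they lost the call through the adjustment over the 28 tests alone. With 1 library left out, the control ratio of miR-130a-3p to miR-301b-3p lost its call without DIV1 control library 2, 3, 4 or 5, and that of miR-301a-3p to miR-301b-3p without DIV5 control library 1, 3 or 5 (exact permutation adjusted p up to 0.0556).

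**Figure D4:**
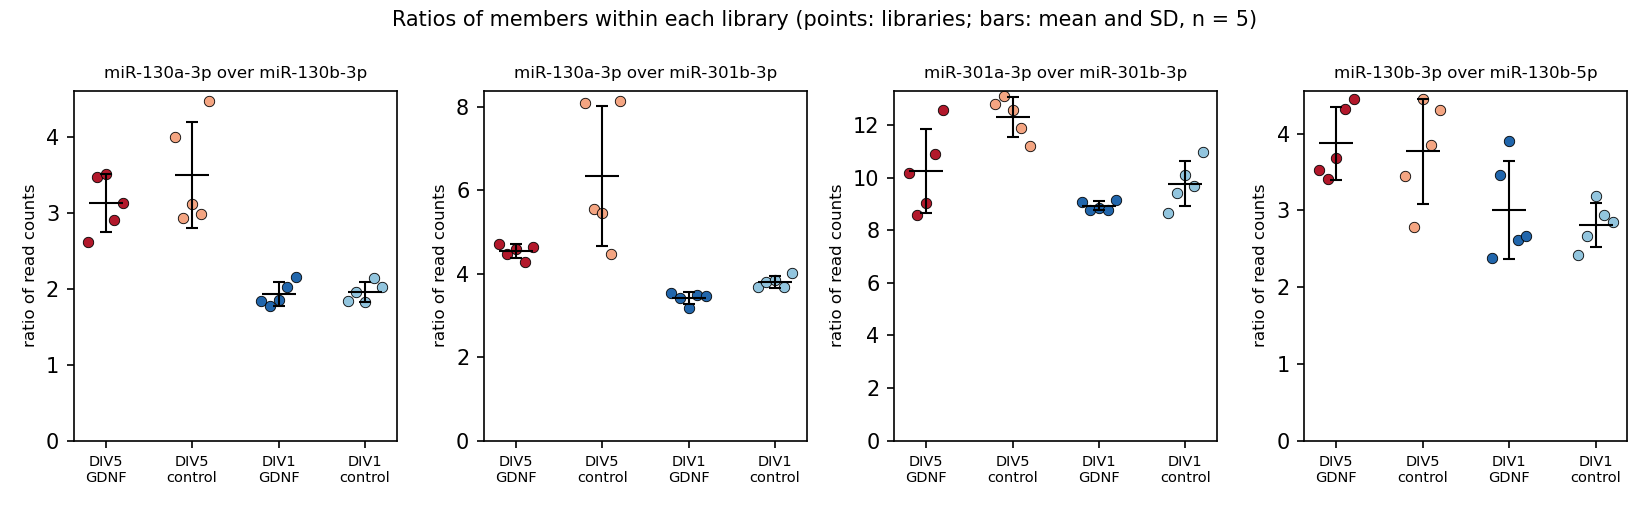
Ratio of read counts between 2 arms within each library, by group, for miR-130a-3p over miR-130b-3p, miR-130a-3p over miR-301b-3p, miR-301a-3p over miR-301b-3p and miR-130b-3p over miR-130b-5p; points are libraries, bars give the arithmetic mean and SD of 5. The ratios of miR-130a-3p lie higher at DIV5 than at DIV1, and DIV5 control libraries 1 and 5 reach 8.09 and 8.15 in the panel of miR-130a-3p over miR-301b-3p.

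No arm passed the test for GDNF on either day in edgeR, and at DIV5 miR-301b-3p had the smallest p of the 8. At DIV5, miR-301b-3p averaged 1088 ± 73.7 CPM with GDNF and 869.3 ± 95.8 CPM in controls (SD, n = 5 each). Its lowest library with GDNF had 1009 CPM and the highest control library 998 CPM, so the groups just failed to overlap, which 0.923% of the tested miRNAs did at DIV5. The difference was 1.25-fold, a log2 fold change of 0.32 (SE 0.0997), with an edgeR p of 0.00378 and an adjusted p of 0.0893 that missed the threshold. In this comparison 0 of 8 arms were called, as against 0.185% of all tested miRNAs, and 1 of 8 arms and 88 of 542 miRNAs had an unadjusted p under 0.05.

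DESeq2 called miR-301b-3p at DIV5 (log2 0.31, adjusted p = 0.0147) among 26 miRNAs in all. edgeR called it without DIV5 control library 2 (0.35, adjusted p = 0.0438) or without DIV5 control library 4 (0.38, adjusted p = 0.0313). Without DIV5 control libraries 1 and 5 it was 0.23 (edgeR adjusted p = 0.999), and by depth it was 0.38 in DIV5 replicates 1 and 2 (adjusted p = 0.201) and 0.24 in replicates 3 to 5 (adjusted p = 0.482). Its cluster neighbour miR-130b-3p had 0.05 and its partner arm miR-301b-5p -0.18 (edgeR adjusted p = 0.921 and 0.881). Of the remaining arms at DIV5, miR-301a-3p had 0.06, miR-130a-3p -0.13, miR-130b-5p -0.03, miR-301a-5p -0.02 and miR-130a-5p -0.22 (edgeR adjusted p from 0.62 to 0.99), and the signs of several turned with 1 or 2 libraries or the scaling.

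At DIV1, edgeR called 0 of 8 arms and 0% of all tested miRNAs for GDNF, and DESeq2 called 0. At an unadjusted edgeR p under 0.05 there were 7 of 542 miRNAs and 0 arms. At this day miR-301b-3p averaged 1925 ± 188 CPM with GDNF and 1711 ± 122 CPM in DIV1 controls (SD, n = 5 each), with overlapping groups and a log2 fold change of 0.17 (SE 0.0998, edgeR adjusted p = 1). The other 3p arms had log2 fold changes between 0.01 for miR-130a-3p and 0.04 for miR-130b-3p and miR-301a-3p, and the 5p arms had -0.37 for miR-301b-5p, -0.13 for miR-130a-5p, -0.03 for miR-130b-5p and 0.03 for miR-301a-5p, each with overlapping groups. The ratio of miR-130a-3p to miR-301b-3p was the member ratio that passed for GDNF: it was 3.41 with GDNF and 3.81 in controls at DIV1, a log2 difference of -0.16 with no overlap (exact permutation p = 0.00794, adjusted p = 0.0317). This is the call of cultures at DIV1 that the joint adjustment took above the threshold (adjusted p = 0.0625) without DIV5 control libraries 1 and 5, which are not in its test. At DIV5 the same ratio was 4.54 with GDNF and 6.17 in controls (log2 difference -0.44, exact permutation adjusted p = 0.0741), where DIV5 control libraries 1 and 5 had 8.09 and 8.15. Between DIV5 libraries with the same replicate number, it was lower with GDNF in 5 of 5 pairs. The ratio of miR-130b-3p to miR-301b-3p was also lower in 5 of 5 (log2 difference -0.29). An exact sign-flip test of the pair differences gave both a p of 0.0625, the smallest that 5 pairs can give. The adjusted p of this sign-flip test was 0.127 for both, above the threshold. Taken by pairs, miR-301a-3p over miR-301b-3p was lower with GDNF in 4 of 5.

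The interaction term tested whether GDNF acted unequally on the 2 days. None of the 8 arms was called, as was 0% of all miRNAs by edgeR and 0 by DESeq2, with 0 arms and 50 of 542 miRNAs at an unadjusted edgeR p under 0.05. The value for miR-301b-3p was 0.15 (SE 0.141, edgeR adjusted p = 0.852), the smallest adjusted p of the family. The day and GDNF comparisons share groups, so the size of a fall with and without GDNF and the GDNF values are not independent of each other.

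Other miRNAs with the same seed had too few reads to be tested. Those with a seed shifted by 1 base did not all move with the family. A search of the RefSeq mature sequences for AGUGCAA at bases 2 to 8 gave 7 entries, of which 3 were the arms above. Of the remaining entries, miR-130c, miR-721 and miR-6341 had 1 read each over the 20 libraries and miR-6389 had 0, which allows up to 0.593 to 7.8 CPM per library. No miRNA named miR-454-3p, also planned as a relative, was among those that the libraries listed. Of 5 tested miRNAs whose seed is shifted by 1 base, 2 were called lower and 1 higher at DIV5 with GDNF, and 3 lower and 1 higher in controls. Of all tested miRNAs, 27.3% were lower and 25.1% higher with GDNF, and 29.3% lower and 31.4% higher in controls, so counts over 5 miRNAs are not read further, and 0 of 5 were called for GDNF on either day.

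miR-19a-3p and miR-19b-3p, of the miR-17 clusters, were lower in both day comparisons: miR-19a-3p had log2 fold changes of -0.83 with GDNF and -0.89 in controls, and miR-19b-3p -0.48 and -0.38 (edgeR adjusted p between 6.99e-06 and 0.00377). miR-148a-3p had 0.01 with GDNF (edgeR adjusted p = 0.955) and was called lower in controls (-0.47, adjusted p = 0.0024). miR-148b-3p was called higher with GDNF (0.29, adjusted p = 0.0389) and had 0.14 in controls (adjusted p = 0.3). miR-152-3p had -0.28 with GDNF (edgeR adjusted p = 0.648) and was called higher in controls (1.25, adjusted p = 0.0332), where its DIV5 values ran from 23 to 195 CPM.

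The pattern over the 20 libraries was compared between miRNAs as the root mean square difference of log2 CPM centred on each miRNA's own mean, among miRNAs with a mean of at least 10 CPM, which gave 438 to compare with each 3p arm. The points share libraries, day and depth, so these are descriptions. Closest to miR-130a-3p were miR-872-5p (0.121), miR-181d-5p (0.13) and miR-19b-3p (0.135). Closest to miR-130b-3p were miR-93-5p (0.151), miR-421-3p (0.165) and miR-135b-3p (0.174).

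Closest to miR-301a-3p were miR-374b-5p (0.174), miR-15b-5p (0.176) and miR-340-3p (0.177), and closest to miR-301b-3p were miR-219a-1-3p (0.183), miR-135b-3p (0.189) and miR-151-3p (0.193). Among the members, miR-130b-3p and miR-301b-3p lay 0.202 apart, the 5th closest miRNA of the 438 seen from miR-301b-3p and the 10th seen from miR-130b-3p. miR-301a-3p and miR-301b-3p lay 0.208 apart. miR-130a-3p and miR-130b-3p, nearly identical in sequence, lay 0.414 apart, the 133rd closest seen from miR-130a-3p and the 81st from miR-130b-3p.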

How the data were processed

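The authors deposited 1 table of unnormalized read counts of mature miRNAs for each library, made with cutadapt 1.8.1, STAR 2.4.1d and HTSeq (version not given) on build mm10, per the submitters' processing notes. The miRNA annotation and strand setting are not given in the sources used here. Each table lists 1886 miRNAs and 5 tally lines, and reads without a feature (9.51% to 22.6%) were left out. The members and lists were chosen with earlier results of these data known.

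The fit used edgeR 4.0.16 under R 4.3.3 (filterByExpr, TMM, glmQLFit with robust estimation, glmQLFTest, 1 coefficient per group, all 20 libraries). This kept 542 of 1581 miRNAs with reads. Adjustment was by Benjamini-Hochberg over the 542, with a threshold of 0.05. An SE is the log2 fold change divided by the square root of F. Ratios used a pseudocount of 0.5 reads and an exact permutation test of log2 ratios. The fit was also run on simulated counts, drawn for independent libraries with dispersions estimated from these data. That run cannot show effects of pairing or of single unusual libraries. Alternatives were other scalings, no filter, DESeq2 1.42.0, a replicate block, subsets of DIV5 libraries and each library left out. Scaling by totals was added after seeing the data. No pair of libraries in a group agreed within sampling noise (lowest chi-square per degree of freedom 12.4).

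Named were all 8 arms, the 3 closest miRNAs of each 3p arm and the seed relatives. miR-6341 and miR-6389 came from the sequence search, and single marker miRNAs are examples chosen after their values were seen. Replicate numbers are in the labels. Deviations from the group means correlated between same-numbered libraries at 0.208 to 0.514 at DIV5, over 0.1 for every number, so the numbers were taken to pair the DIV5 libraries. At DIV1 the correlations were 0.006 to 0.474, and the numbers were not taken to pair libraries. The highest correlation with another number was 0.206 to 0.331 at DIV5 and -0.068 to 0.282 at DIV1. For DIV5 numbers 1, 3 and 5 it was close to that with the same number (0.206, 0.218 and 0.262 against 0.208, 0.248 and 0.262). The pairing at DIV5 is therefore an assumption.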

Additional observations from a re-analysis of the deposited data

Results flagged for a closer look

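Within the 4 groups of 8 arms, 4 of 32 sets of 5 libraries held a library far from the other 4 (Dixon's test, critical value 0.71), where chance gives about 1 in 20. miR-130a-5p had 6.945 CPM (5 reads) in DIV1 GDNF library 1, against 31.45 to 40.8 CPM in the other libraries of that group. miR-130b-3p had 1749 CPM in DIV5 control library 2, against 1474 to 1526 CPM in the others, and 3678 CPM in DIV1 control library 3, against 3180 to 3297 CPM. miR-301b-5p had 5.2 CPM in DIV1 GDNF library 5, which is 2 reads in the library with the lowest total, against 9.884 to 11.11 CPM in the others.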

How the results depend on the processing

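Over the day comparisons, 298 of 319 values obtained with another setting kept their direction and side of the threshold, 21 lost the call and 0 changed direction. The day calls of miR-301a-3p, miR-130b-3p, miR-301b-3p and miR-130b-5p held in 20 of 20 alternatives in each comparison. With DIV5 replicates 1 and 2 alone, 5 of 8 arms were called in each day comparison, where fewer libraries entered and 20.6% of all tested miRNAs with GDNF and 20% in controls were called lower, and with 1 library left out 8 of 8 with GDNF and 7 to 8 of 8 in controls. For GDNF at DIV5 the count was 1 of 8 by DESeq2 and 0 to 1 with 1 library left out. The member ratios passing numbered 0 without DIV5 control libraries 1 and 5, 6 to 10 with 1 library left out and 7 with a test over replicate pairs for GDNF at DIV5, an alternative chosen after seeing the data. Of the 7 calls lost without those 2 libraries, 4 had the smallest exact permutation p that 3 libraries against 5 can give, 0.0179, and 3 kept theirs of 0.00794 and were lost through the adjustment over 28 tests. Without a filter, miR-130a-3p was at -0.14 with GDNF and -0.05 in controls and miR-301a-5p at -0.60 in both, all not called; the cause was not tested.

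GDNF and interaction values that changed sign were all uncalled. With library totals, GDNF at DIV5 gave -0.04 for miR-130b-3p and -0.02 for miR-301a-3p, and the interaction gave -0.07 for miR-301a-3p. Without DIV5 control libraries 1 and 5, miR-130a-3p had 0.05 and miR-301a-3p -0.06 at DIV5, and in the interaction miR-130a-3p had 0.07, miR-130a-5p 0.05 and miR-301a-3p -0.07. With the replicate block added to this, the DIV5 values were 0.02 for miR-130a-3p, 0.09 for miR-130a-5p, -0.10 for miR-130b-3p and -0.17 for miR-301a-3p, and the interaction values 0.05, 0.34 and -0.19 for miR-130a-3p, miR-130a-5p and miR-301a-3p. DIV5 replicates 1 and 2 gave -0.08 for miR-301a-3p and 0.41 for miR-301b-5p at DIV5 and -0.11 for miR-301a-3p in the interaction, and replicates 3 to 5 gave 0.02 for miR-130b-5p at DIV5 and -0.11 for miR-301b-5p in the interaction. For GDNF at DIV1, miR-130a-3p had -0.01 with size factors of the DESeq2 type and in DESeq2, -0.04 without a filter and -0.02 with only the groups compared, and without a filter miR-130b-3p had -0.01 and miR-301a-5p -0.02.

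With 1 library left out, GDNF at DIV5 ran from -0.04 to 0.12 for miR-130b-3p, -0.16 to 0.15 for miR-130b-5p and -0.12 to 0.05 for miR-301a-5p. At DIV1 it ran from -0.03 to 0.02 for miR-130a-3p, -0.33 to 0.10 for miR-130a-5p, -0.01 to 0.08 for miR-130b-3p, -0.13 to 0.02 for miR-130b-5p, -0.03 to 0.06 for miR-301a-3p and -0.11 to 0.11 for miR-301a-5p. The interaction ran from -0.36 to 0.12 for miR-130a-5p, -0.03 to 0.12 for miR-301a-3p, -0.14 to 0.09 for miR-301a-5p and -0.03 to 0.38 for miR-301b-5p. With the replicate block alone, miR-301b-3p had 0.33 for GDNF at DIV5 (edgeR adjusted p = 0.0978), and the block changed no call of an arm. At DIV5 every pair of same-numbered libraries correlated best with its own number or tied, and at DIV1 this held for 3 of 5 numbers. Depth limits the 5p arms of miR-130a, miR-301a and miR-301b, which had as few as 2 reads in a library.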
